A study of Mus musculus with 8 samples.

Results

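Retinoic acid is a small signal that cells make from vitamin A, and 9 genes of its pathway were examined in embryonic mouse brain cortex. They were Aldh1a1, Aldh1a2 and Aldh1a3, which encode the enzymes of synthesis, the receptor genes Rara, Rarb, Rarg and Rxra, the binding protein gene Crabp1 and the degrading enzyme gene Cyp26b1. The genes were chosen by symbol. All 9 were measured, each by 1 probe set, among 19938 genes on the arrays. In the VEGF-labelled arrays Crabp1, Rarb, Aldh1a3 and Rara had the largest differences from control, all toward lower values, while Aldh1a1 and Rxra differed by less than 0.1 in the other direction. With limma no difference of the 9 had an adjusted p under 0.05.

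Retinaldehyde is oxidised to retinoic acid by the Aldh1a enzymes, and cytochromes of the Cyp26 family break it down. Retinoic acid binds receptors of the Rar family, which pair with Rxr partners on response elements in DNA and change transcription of the genes nearby. In the embryonic forebrain the meninges are a known site of Aldh1a2, and the ventral forebrain of Aldh1a3, while Rarb is known for its expression in the developing striatum.

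Expression was measured on 8 arrays of brain cortex taken at embryonic day 16 from mice of mixed strain background. By the labels 4 arrays hold wild-type controls and 4 hold bitransgenic embryos. In the bitransgenic embryos a tetracycline-controlled transactivator (GFAP-tTA) is driven by the Gfap promoter, which is known for its activity in astroglia and radial glia, and TetO-VEGF-A164 carries the vessel growth factor VEGF-A. The controls are described as lacking TetO-VEGF-A164, and no label says whether they carry GFAP-tTA. The labels do not say whether an array holds 1 embryo or a pool, or whether embryos shared a litter, so a p-value here reflects the spread among 8 arrays, which may in part be technical.

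The deposited values are logarithms, taken as log2 although no source states the base, and each probe set is centred on its median over the 8 arrays. A value of 0 is therefore the middle of the arrays for that gene, no absolute level remains, and levels cannot be ordered between genes or checked against markers of cortex. Folds are given for base 2. The medians of the arrays ran from -0.0091 to 0.015. Vegfa did not separate the groups, at -0.12 to 0.036 in control and -0.055 to 0.078 in the other group (limma, adjusted p = 0.748), so it does not check the labels. The bitransgenic arrays are therefore called VEGF-labelled, or VEGF 1 to VEGF 4. Control 3, VEGF 2 and VEGF 3 had a centred Xist value above 2 and are called arrays of female pattern. A sex index, used as a covariate below, was Xist minus the mean of 3 Y-linked genes. The number of arrays limits the precision.

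Of the 9 genes 7 were lower in the VEGF-labelled arrays by their group means and 2 were higher, with a median difference of -0.12. Over all 19938 genes 56.7% were lower, and the median difference was -0.010. With limma 0 of the 9 genes passed an adjusted p of 0.05, as did 0 of all genes (a share of 0%). At an unadjusted p under 0.05 there were 4 of the 9, all of them lower, where the share among all genes was 12.5% in either direction, 7.84% lower and 4.62% higher. The methods' t-test called 3 of the 9 at an unadjusted p under 0.05, all but Rarb of these 4, against 10.6% of all genes, and 0 after adjustment. In 2 of the 9 genes, Aldh1a3 and Rara, the groups did not overlap and the VEGF-labelled values were lower. Of all genes 6.84% did not overlap, 4.71% lower and 2.13% higher.

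**Figure D1:**
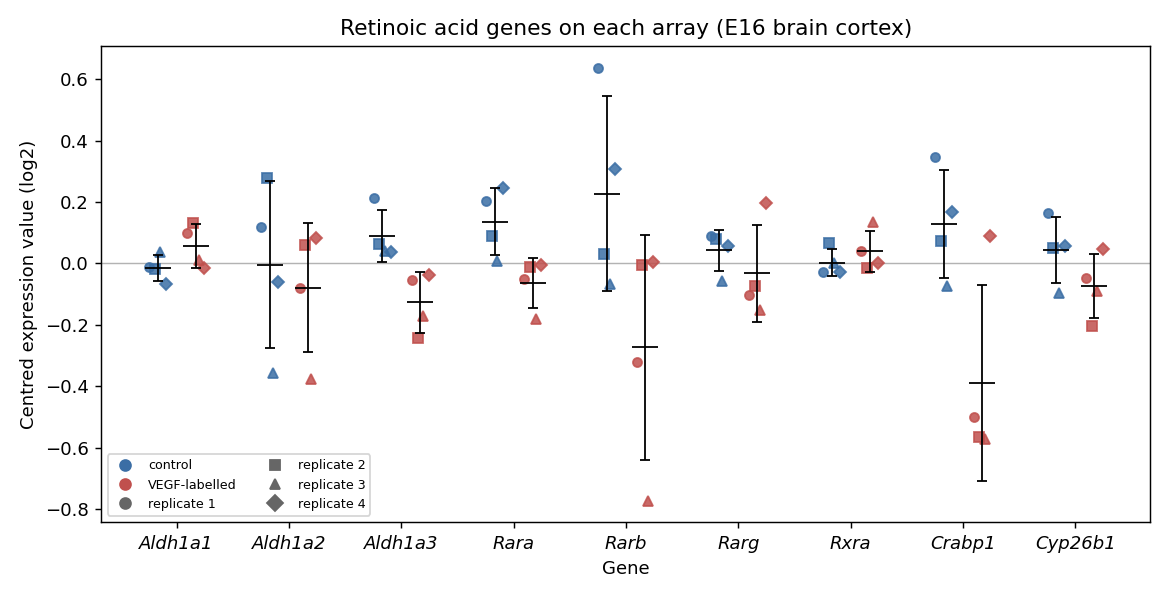
Centred log2 values of the 9 genes (x axis) on each array, with control arrays in blue, VEGF-labelled arrays in red, replicate numbers as marker shapes, and black lines for the group mean and SD (n = 4 each). The groups lie apart in Aldh1a3 and Rara, 3 of the 4 VEGF-labelled arrays lie between -0.57 and -0.50 in Crabp1, and control 1 and VEGF 3 are the extremes of Rarb at 0.64 and -0.77.

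Aldh1a3, a retinaldehyde dehydrogenase, had the smallest p of the 9 genes. Its values in control 1 to 4 were 0.21, 0.064, 0.039 and 0.037, and those in VEGF 1 to 4 were -0.054, -0.24, -0.17 and -0.037. Every VEGF-labelled value was below every control value, though VEGF 4 and VEGF 1 were close to the lower controls. Control averaged 0.088 ± 0.084 and the VEGF-labelled group -0.13 ± 0.10 (SD, n = 4 each). The difference was -0.22, its SE 0.060 and its 95% interval -0.35 to -0.081. That is 0.861-fold (limma, adjusted p = 0.243). Control 1 stood above the rest of its group, and without it the difference was -0.17 (limma, adjusted p = 0.62).

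Aldh1a2, the main dehydrogenase of the early embryo and the enzyme of the meninges, varied more within the groups than between them. Control 1 to 4 read 0.12, 0.28, -0.36 and -0.060, and VEGF 1 to 4 read -0.082, 0.060, -0.38 and 0.081. One array of each group, control 3 and VEGF 3, was low, and the ranges overlapped almost entirely. The difference was -0.074 with an SE of 0.142 and a 95% interval of -0.40 to 0.25 (limma, adjusted p = 0.896). Its sign turned with single arrays, to 0.025 without VEGF 3 and 0.020 without control 2, and was 0.0014 after quantile normalization.

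Markers of meninges and fibroblasts, read by 13 of 13 listed genes, were low on the same 2 arrays as Aldh1a2. Their mean was at -0.21 in control 3 and -0.38 in VEGF 3, and it was highest in VEGF 2 at 0.18 and control 2 at 0.12. By group the mean ranged from -0.21 to 0.12 over the controls and from -0.38 to 0.18 over the VEGF-labelled arrays. Foxc1, a transcription factor of the meninges, read -0.25 in control 3 and -0.46 in VEGF 3. The mean of the brain endothelial markers was also lowest there within each group, at -0.16 in control 3 and -0.25 in VEGF 3. So was that of the choroid plexus markers, at -0.072 and -0.176, but control 4 at -0.064 and VEGF 4 at -0.171 were almost as low. The part of these tissues in the Aldh1a2 values was not tested. In such tissue samples fewer cells of a type and less RNA per cell cannot be told apart.

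Aldh1a1, the dehydrogenase known from dopaminergic neurons of the midbrain, differed by 0.072, with an SE of 0.044 and a 95% interval of -0.027 to 0.17 (limma, adjusted p = 0.566). Without VEGF 2 it was 0.046. Control arrays lay between -0.068 and 0.037, and VEGF 1 and VEGF 2 were above all of them at 0.10 and 0.13, while VEGF 3 at 0.011 and VEGF 4 at -0.016 lay within that range. Aldh1a7, a mouse gene whose sequence is very like that of Aldh1a1, differed by -0.0065 (limma, adjusted p = 0.976). Whether the probe sets of this pair also detect each other's transcripts was not tested, so both values are uncertain to that extent.

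Among the receptors Rarb had the widest spread of the 9 genes, 1.41 between its lowest and highest array. Rarb is itself a target of retinoic acid. Its values in control 1 to 4 were 0.64, 0.031, -0.067 and 0.31, and those in VEGF 1 to 4 were -0.32, -0.0043, -0.77 and 0.0043. Control 2, control 3, VEGF 2 and VEGF 4 lay close together, between -0.067 and 0.031, and VEGF 1 and VEGF 3 lay below all controls. The means were 0.23 ± 0.32 and -0.27 ± 0.37 (SD, n = 4 each). They differed by -0.50 or 0.707-fold, with an SE of 0.198 and a 95% interval of -0.95 to -0.053 (limma, adjusted p = 0.359).

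The size of the Rarb difference rested on the arrays at both ends. It was -0.33 without VEGF 3, where the unadjusted limma p was 0.075 over 7 arrays in a model fitted to all genes, and -0.36 without control 1. The unadjusted limma p was also 0.05 or more without control 1, control 4 or VEGF 1 (0.090, 0.069 and 0.065), with the sex index as a covariate (0.053) and without control 2, VEGF 1 and VEGF 2 (0.051), and the methods' t-test gave 0.084. Without the 3 arrays of female pattern it was -0.48.

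The promoter of Rarb is shown because it carries the response element through which retinoic acid is known to raise its transcription, next to that of Cyp26a1, a degrading enzyme gene with an element of the same kind. The lines give 120 bases before the RefSeq start site in GRCm38.p6, 5′ to 3′ on the strand of the gene, with the matched element in capitals. The search was for the DR5 retinoic acid response element, 2 half-sites (a purine, G, then G or T, then TCA) in the same direction with 5 bases between them, on both strands.
Rarb, chr14:16575477-16575596, minus strand: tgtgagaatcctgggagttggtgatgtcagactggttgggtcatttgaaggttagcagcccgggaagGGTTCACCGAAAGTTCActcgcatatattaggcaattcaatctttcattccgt
Cyp26a1, chr19:37697688-37697807, plus strand: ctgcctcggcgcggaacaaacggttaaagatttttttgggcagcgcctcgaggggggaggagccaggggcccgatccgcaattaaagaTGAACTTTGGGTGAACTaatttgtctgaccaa

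The Rarb element lay 53 to 37 bases before the start site, on the strand of the gene. That of Cyp26a1 lay 32 to 16 bases before it, on the opposite strand. RefSeq windows of 250 bases before to 50 after a start were given for 8 of the 9 genes, in 14 windows, and Rarb was the 1 gene of these with a match. Of 32851 windows over all genes 0.0974% held one.

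Genes with this element in the window did not share a direction. Of 31 such genes 11 were measured, 4 lower and 7 higher, with a median difference of 0.014. At an unadjusted limma p under 0.05 there were 2 of the 11, against 12.5% of all genes. They were Rarb and the embryonic globin gene Hbb-y, the latter at 0.44 (limma, adjusted p = 0.339). Cyp26a1 itself read 0.0026, 0.073, -0.051 and 0.048 in control 1 to 4 and 0.021, -0.039, -0.0026 and -0.16 in VEGF 1 to 4. Its groups overlapped, and its difference was -0.064 with a 95% interval of -0.17 to 0.046 (limma, adjusted p = 0.666). A match describes the letters of these windows and not the binding of a receptor.

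Rara, the most widely expressed of the Rar receptors, was the other gene whose groups lay apart. Control 1 to 4 read 0.20, 0.088, 0.0062 and 0.25, and VEGF 1 to 4 read -0.053, -0.013, -0.18 and -0.0062. All VEGF-labelled values were below 0 and all control values above it, with control 3 and VEGF 4 nearly meeting. Control averaged 0.14 ± 0.11 and the VEGF-labelled group -0.063 ± 0.081 (SD, n = 4 each). The difference was -0.20 or 0.871-fold, with an SE of 0.062 and a 95% interval of -0.34 to -0.059 (limma, adjusted p = 0.271). Its differences lay between -0.24 and -0.16 in the 19 alternative settings run. Of these settings Rara had an unadjusted p under 0.05 in 19, Aldh1a3 in 18, Crabp1 in 17 and Rarb in 12.

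Rarg and Rxra showed smaller differences. Rarg, the Rar receptor known from skin and cartilage, read -0.057 to 0.088 in control, and VEGF 1 to 3 lay below that range at -0.10, -0.074 and -0.15 while VEGF 4 lay above it at 0.20. Its difference was -0.075 with a 95% interval of -0.24 to 0.094 (limma, adjusted p = 0.766), and it was -0.15 without VEGF 4 (limma, adjusted p = 0.21) and -0.036 without VEGF 3. Without control 2, VEGF 1 and VEGF 2 it was -0.0059. Rxra, a partner of the Rar receptors, spanned 0.164 over the 8 arrays. VEGF 3 was its highest array at 0.13, and the difference was 0.037 with a 95% interval of -0.060 to 0.13 (limma, adjusted p = 0.805). Without VEGF 3 it was 0.0060, and without control 2 it was 0.059.

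Crabp1, a protein that holds retinoic acid in the cytoplasm, had the largest difference of the 9 genes. Its values were 0.35, 0.073, -0.073 and 0.17 in control 1 to 4 and -0.50, -0.57, -0.57 and 0.088 in VEGF 1 to 4. VEGF 1 to 3 lay close together and far below control, and VEGF 4 lay inside the control range. The group means were 0.13 ± 0.18 and -0.39 ± 0.32 (SD, n = 4 each). Their difference was -0.52 or 0.699-fold, with an SE of 0.150 and a 95% interval of -0.86 to -0.18 (limma, adjusted p = 0.255). Without VEGF 4 the difference was -0.68 (limma, adjusted p = 0.055), against adjusted p values from 0.17 to 0.63 in the other settings. It was -0.40 without the 3 arrays of female pattern.

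Cyp26b1, the retinoic acid hydroxylase that clears the signal from much of the embryonic brain, read 0.16, 0.049, -0.10 and 0.056 in control 1 to 4 and -0.048, -0.20, -0.091 and 0.048 in VEGF 1 to 4. VEGF 2 lay below the control range and the other VEGF-labelled arrays lay within it. The difference was -0.12 with an SE of 0.067 and a 95% interval of -0.27 to 0.034 (limma, adjusted p = 0.528). It was -0.074 without VEGF 2 and -0.077 without control 1. Without control 3 or without VEGF 4 it was -0.16, with unadjusted limma p values of 0.033 and 0.045.

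Seen by array, VEGF 3 was the lowest of the 8 arrays for 5 of the 9 genes, and control 1 was the highest for 4. Control 2 had 8 of the 9 genes above 0 and control 1 had 7, whereas VEGF 1, VEGF 2 and VEGF 3 had 2 each. Control 3, with 4 above 0, and VEGF 4, with 5, lay between them. The mean over the 9 genes was 0.19, 0.079, -0.063 and 0.079 in control 1 to 4 and -0.11, -0.10, -0.24 and 0.040 in VEGF 1 to 4.

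**Figure D2:**
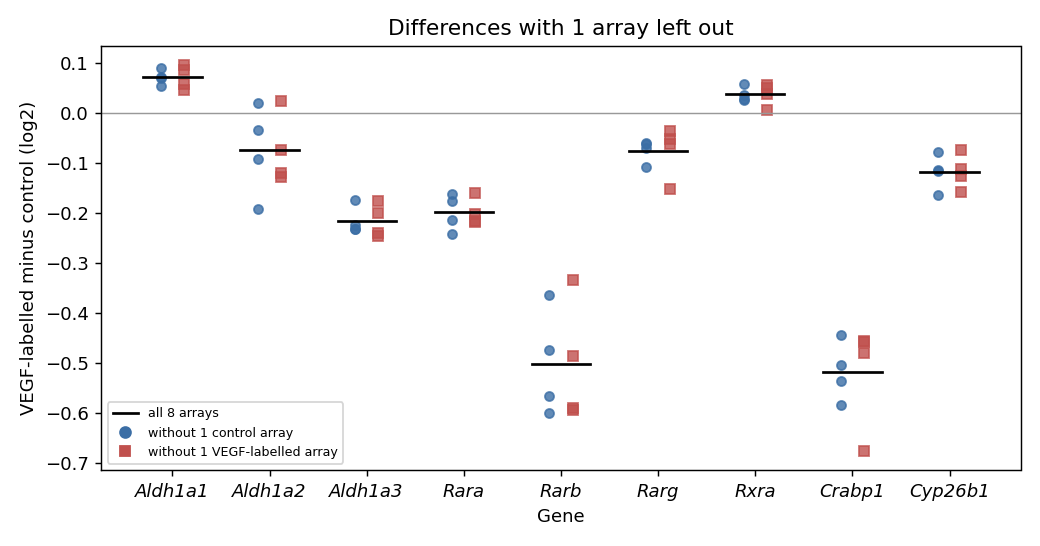
Differences of the 9 genes (VEGF-labelled minus control, log2) over all 8 arrays (black lines), without 1 control array (blue circles) and without 1 VEGF-labelled array (red squares). Crabp1 reaches -0.68 without VEGF 4, Rarb -0.33 without VEGF 3, and Aldh1a2 changes sign.

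Other genes of the pathway came from 4 lists of retinoid uptake and storage, carriers and degradation, further receptors and cofactors, and known target genes, of which 35 of 39 genes were measured. With limma 0 of the 35 passed an adjusted p of 0.05, and 8 had an unadjusted p under 0.05, 7 lower and 1 higher, where the share among all genes was 12.5%. By the methods' t-test there were also 8. In 4 of the 35 the groups did not overlap, 3 lower and 1 higher, against 6.84% of all genes. The median difference was -0.064, and 25 of the 35 were lower.

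The genes with the largest differences among these 35 were receptors. Rxrg, the Rxr form with the most restricted expression and one known from the striatum, read 1.24, 0.15, 0.045 and 0.89 in control 1 to 4 and -0.57, -0.23, -1.20 and -0.045 in VEGF 1 to 4. Its groups did not overlap, and control 1, control 4 and VEGF 3 lay farthest out. The difference was -1.09 with an SE of 0.313 and a 95% interval of -1.80 to -0.38, or 0.469-fold (limma, adjusted p = 0.245).

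Rorb, an orphan nuclear receptor that marks layer 4 neurons of the cortex, read 0.36, 0.10, 0.052 and 0.24 in control 1 to 4 and -0.25, -0.19, -0.49 and -0.052 in VEGF 1 to 4. The groups lay apart here too, with a difference of -0.44 and an SE of 0.098 (limma, adjusted p = 0.243). Rxrb, the broadly expressed Rxr form, differed by only -0.10 (limma, adjusted p = 0.332), again without overlap. Nr2f1, an orphan receptor that patterns cortical areas, was the gene on the higher side, at -0.091 to -0.025 in control arrays and 0.025 to 0.038 in VEGF-labelled ones, a difference of 0.10 (limma, adjusted p = 0.281). The other 6 of the 10 measured receptors and cofactors had an unadjusted p of 0.05 or more, among them Ncoa2 at -0.098 and Ncoa1 at -0.13.

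Of the 12 measured target genes 3 had an unadjusted p under 0.05, all lower, against 7.84% of all genes lower at that p. The homeobox genes Meis1 and Meis2, cofactors of other homeobox proteins, differed by -0.31 (limma, adjusted p = 0.283) and -0.20 (limma, adjusted p = 0.325), and the repressor Zfp703 by -0.21 (limma, adjusted p = 0.267). In each of the 3 genes VEGF 1 to 3 lay below all controls and VEGF 4 lay within their range. Tgm2, the transglutaminase often used as a readout of retinoic acid, read -0.11 to 0.21 over the controls and -0.28 to 0.079 over the VEGF-labelled arrays, a difference of -0.15 (limma, adjusted p = 0.554).

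Of the 11 measured genes of uptake and storage 1 had an unadjusted p under 0.05, against 12.5% of all genes. It was Lrat, which esterifies retinol, at -0.11 (limma, adjusted p = 0.375). Stra6, a membrane receptor for retinol-binding protein, differed by -0.16 and the reductase Dhrs4 by -0.071 (limma, adjusted p = 0.649 and 0.703). Stra6 was at -0.042 without VEGF 3 and Dhrs4 at -0.032 without VEGF 2. Of the 5 carrier and degradation genes 0 had an unadjusted limma p under 0.05. Crabp2, the relative of Crabp1 that hands retinoic acid to its receptors, stood on the other side from it, with a difference of 0.20 and a 95% interval of -0.0011 to 0.41 (limma, adjusted p = 0.405). It was highest in VEGF 1 and VEGF 2, at 0.25 and 0.27, against -0.24 to 0.091 in control. The degrading enzymes Cyp26c1 and Cyp2s1 differed by -0.11 and -0.10 (limma, adjusted p = 0.454 and 0.568).

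**Figure D3:**
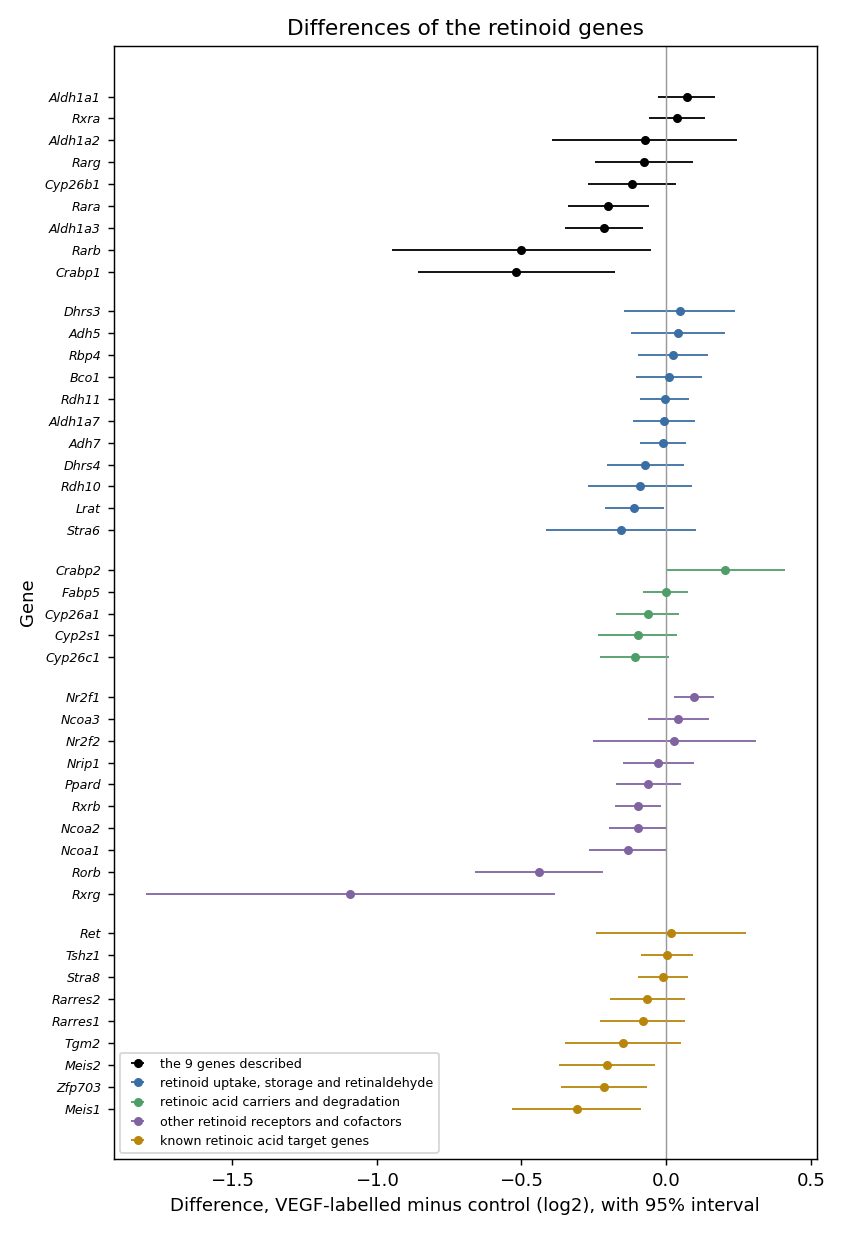
Difference between the groups (VEGF-labelled minus control, log2) with its 95% interval from limma for the 9 genes (black) and the 35 other retinoid genes by list (colours), target genes that stand in another list being drawn once. Rxrg at -1.09 lies farthest from 0, followed by Crabp1 at -0.52 and Rarb at -0.50, and on the higher side Crabp2 reaches 0.20.

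Markers of neighbouring tissue differed between arrays along with these genes. Their lists were chosen with earlier results of these data known. The striatal and lateral ganglionic eminence list, with 12 of 14 genes measured, had a mean of 0.27, 0.040, 0.0095 and 0.12 in control 1 to 4 and -0.0059, 0.042, -0.54 and -0.079 in VEGF 1 to 4. Control 1 was the highest array and VEGF 3 the lowest, as in Rarb and Rxrg and in the list of cortical interneurons below. VEGF 1, at -0.0059 in the striatal mean, read -0.32 in Rarb and -0.57 in Rxrg. That mean was raised by Foxp2, the highest gene of the list in VEGF 1 and VEGF 2 at 0.71 and 0.64. In VEGF 3 and VEGF 4 Foxp2 read -0.48 and -0.32, and it was the 1 gene of the list with a higher group mean. Of the 12 genes 5 had an unadjusted limma p under 0.05, all lower, against 7.84% of all genes lower at that p. The dopamine receptor Drd1 was at -0.23 (limma, adjusted p = 0.265) and the zinc finger factor Sp9 at -0.34 (limma, adjusted p = 0.288). Meis2 stood in this list as well as among the target genes.

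The list of cortical interneurons and the medial ganglionic eminence, with 13 of 14 genes measured, had means of 0.048 to 0.39 over the controls and -0.87 to -0.11 over the VEGF-labelled arrays, lowest in VEGF 3. All 13 were lower (56.7% of all genes) and 10 had an unadjusted limma p under 0.05 (7.84% of all genes, lower). Lhx6 was at -1.23 and Dlx2 at -0.62 (limma, adjusted p = 0.243 for both). The thalamus list, with 10 of 10 genes measured, had means of -0.34 to 0.25 over the controls and -0.20 to 0.71 over the VEGF-labelled arrays, and VEGF 1 and VEGF 2 were highest at 0.71 and 0.63. All 10 were higher and 3 had an unadjusted limma p under 0.05 (4.62% of all genes, higher). Lef1 was at 0.36 and Lhx2, which cortical progenitors also express, at 0.18 (limma, adjusted p = 0.262 and 0.289).

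Cortical progenitor and projection neuron genes, with 10 of 12 measured, had means of -0.072 to 0.12 over the controls. Their means in VEGF 1 to 4 were -0.31, -0.36, 0.020 and 0.079. Of these 10 genes 4 were lower and 1 higher at an unadjusted limma p under 0.05, against 7.84% lower and 4.62% higher among all genes. Bcl11b was at -0.48 and Sox5 at -0.50 (limma, adjusted p = 0.243 for both). Crabp1 was low in VEGF 1 to 3, and so were Bcl11b and Sox5, both at -0.35 in VEGF 3. On that array Neurod2, Neurod6 and Tbr1 read from -0.15 to -0.040, while Fezf2, Eomes, Emx1, Pax6 and Emx2 read from 0.087 to 0.41. The part of these tissues in the retinoid values was not tested. Without control 2, VEGF 1 and VEGF 2, the 3 arrays highest in the thalamus list, the differences were -0.39 for Crabp1, -0.68 for Rarb, -0.20 for Aldh1a3 and -0.24 for Rara. Their unadjusted limma p values there were 0.11, 0.051, 0.033 and 0.033, with only VEGF 3 and VEGF 4 left in their group.

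**Figure D4:**
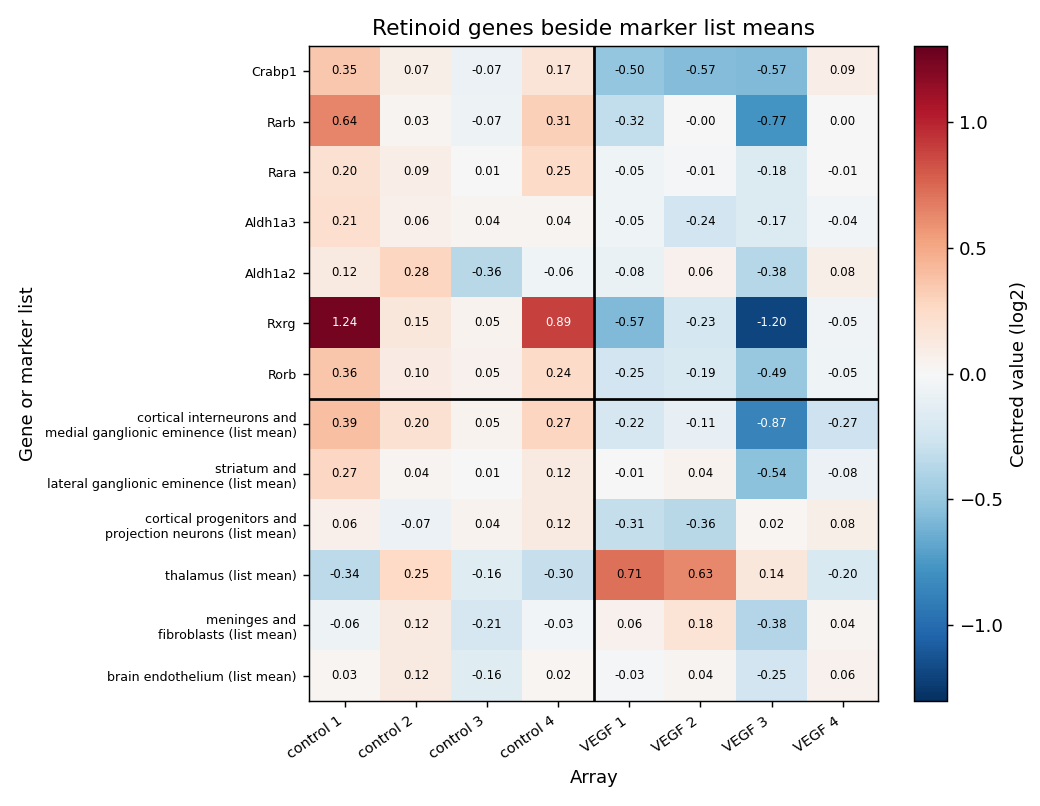
Centred log2 values on the 8 arrays (columns) of 7 retinoid genes (upper rows) and of the means of 6 marker lists (lower rows), red above and blue below 0. VEGF 3 is lowest in Rarb and Rxrg and in the interneuron and striatal lists, and Crabp1 is low in VEGF 1 to 3. Aldh1a2 is low in control 3 and VEGF 3, like the meningeal and endothelial lists.

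In the remaining lists the ranges of the groups overlapped. Brain endothelial markers, 10 of 10 measured, had means of -0.16 to 0.12 over the controls and -0.25 to 0.061 over the VEGF-labelled arrays, and choroid plexus markers, 9 of 10 measured, of -0.072 to 0.22 and -0.18 to 0.14. In both lists 0 genes had an unadjusted limma p under 0.05, and the smallest p belonged to the tight junction gene Cldn5 (-0.24) and the vessel receptor Tie1 (-0.11), and to the water channel Aqp1 (-0.17) and the folate receptor Folr1 (-0.14). Olfactory bulb markers, 7 of 7 measured, had means of -0.080 to 0.093 and -0.033 to 0.091. An unadjusted limma p under 0.05 was found in 4 of the 7 (12.5% of all genes), 2 higher and 2 lower. Among them were Barhl2 at 0.29 and Tbx21 at -0.13, and the groups of Tbx21 did not overlap. Calb2, at 0.36, was also among them and was counted in the thalamus list as well. Eomes stood both in the olfactory bulb list and in that of cortical progenitors and projection neurons. In the meningeal list 1 of 13 genes had an unadjusted limma p under 0.05 (12.5% of all genes), the transporter Slc6a13 at -0.49, and Col1a1 differed by 0.15. Red cell markers, 9 of 11 measured, were all higher by their means, 3 of them at an unadjusted limma p under 0.05 (4.62% of all genes, higher). Alas2 was at 0.83 and Hbb-y at 0.44. The mean of this list ran from -0.17 to -0.010 over the controls and from -0.019 in VEGF 4 to 0.72 in VEGF 1.

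For each of the 9 genes the pattern over the 8 arrays was compared with that of every other named gene by Pearson's r, as a description. Crabp1 was most like Ntsr1, a neurotensin receptor known from deep-layer cortical neurons (r = 0.996 over 8 arrays), and Bdh1, an enzyme of ketone body use (r = 0.991). Ntsr1 differed by -0.54 between the groups and Bdh1 by -0.23. Rarb was most like Plekha2 (r = 0.994) and Plppr5 (r = 0.988), of which Plppr5 differed by -0.60 and Plekha2 by -0.062.

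Rara was most like the kinase gene Fyn (r = 0.990) and the zinc finger gene Zfp821 (r = 0.983). Aldh1a3 was most like the mitochondrial carrier Slc25a23 (r = 0.982) and the deacetylase Sirt2 (r = 0.980), and Aldh1a2 like the creatine kinase Ckmt1 (r = 0.987) and the sialic acid enzyme Gne (r = 0.976). For Cyp26b1 they were Wdr81 and Foxo3 (r = 0.980 and 0.972), for Rarg Edem2 and Mgst3 (r = 0.976 and 0.960), for Aldh1a1 Mir488 and Usp54 (r = 0.971 and 0.967), and for Rxra Slc4a11 and Olfr1204 (r = 0.956 and 0.955). These genes were picked for the highest r among all named genes. No member of the 9 was among the others' 2 nearest genes.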

How the data were processed

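RNA of embryonic brain cortex was labelled from 120 ng of total RNA, per the labels' protocols. What the authors deposited are, judging by their range, log2 values of 28853 probe sets on 8 arrays, each probe set centred on its median. Affymetrix Expression Console and build mm8 are named in the submitters' processing notes, and steps of background correction or summarisation in none of the sources. Platform annotation gave 21789 probe sets 1 gene symbol, 1621 several and 5443 none here. Symbols followed Entrez identifiers to RefSeq (GRCm38.p6, the build of the promoter sequences), and averaging per gene left 19938 genes. Centred values allow no filter on dim probe sets, and signal over background is unknown.

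The groups, 4 arrays each, were compared with limma 3.58.1 in R 4.3.3 with no covariate, p-values being adjusted by Benjamini-Hochberg across the 19938 genes. SEs and 95% intervals of single genes are those of this fit, which was tested on simulated data. Genes named beyond the 9 were the 3 of smallest p and all at an unadjusted p under 0.05 in each retinoid list, the 2 of smallest p in each marker list, Aldh1a7, Vegfa and the 2 genes most similar to each of the 9. Cyp26a1, Tgm2, Ncoa1, Ncoa2 and Foxc1 were named after their values were seen. The same holds for Neurod2, Neurod6, Tbr1, Fezf2, Eomes, Emx1, Pax6, Emx2, Foxp2 and Calb2. The genes and lists were chosen with earlier results of these data known. The alternatives were array centring, quantile normalization, array weights, a trended robust prior, the replicate number as a block, the methods' t-test, a sex index, 2 treatments of probe sets, and leaving out arrays.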

Additional observations from a re-analysis of the deposited data

Results flagged for a closer look

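In groups of 4 arrays a value was singled out where its gap to the nearest other exceeded 0.829 of the group's range (Dixon's 95% value). Of 102 groups of gene values and list means examined 6 had such an array, and chance alone gives about 1 in 20. Among the 9 genes these were Aldh1a3 in control 1, at 0.21 against 0.037 to 0.064 in the other controls, and Crabp1 in VEGF 4, at 0.088 against -0.57 to -0.50. The Aldh1a7 value of VEGF 3 was -0.064 against -0.0047 to 0.0072, and the Meis2 value of control 2 was -0.040 against 0.069 to 0.091. Lef1 in control 2 was at 0.074 against -0.24 to -0.19, and Tie1 in control 3 at -0.22 against 0.061 to 0.11.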

How the results depend on the processing

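The 9 genes were recomputed under 19 alternatives, and 3 of the 171 values had another sign than the reported difference, all of Aldh1a2. Several alternatives could not change a sign in these genes. The replicate block, the trended robust prior and the methods' t-test returned the same differences. So did the 2 treatments of probe sets, as each gene had 1 probe set. The Aldh1a2 difference was 0.0014 after quantile normalization and ranged from -0.19 to 0.025 with 1 array left out. Of the other named genes, Aldh1a7 was at 0.0012 with arrays centred on their medians, at 0.021 without the arrays of female pattern and at -0.049 to 0.016 with 1 array left out, and Dhrs4 was at 0.031 without control 2, VEGF 1 and VEGF 2. No setting brought any of the 9 genes past an adjusted p of 0.05. Over all genes 1 gene passed after quantile normalization (Lhx6, limma, adjusted p = 0.041) and 1 without control 2, VEGF 1 and VEGF 2, and with 1 array left out 0 to 10 passed, the 10 without VEGF 4. At an unadjusted p under 0.05 there were 2 of the 9 genes without the arrays of female pattern (7.94% of all genes), 2 without control 2, VEGF 1 and VEGF 2 (14% of all genes), and 3 to 6 with 1 array left out, the 6 without VEGF 4 (14.4% of all genes, against 7.65% to 13.6% for the other arrays). The groups of 4 of the 9 genes did not overlap without the arrays of female pattern (23.9% of all genes), and of 2 to 4 with 1 array left out, the 4 without VEGF 4 and without control 3 (13% and 13.7% of all genes). Of the 35 other retinoid genes 4 had an unadjusted p under 0.05 without the arrays of female pattern (7.94% of all genes). There were 4 without control 2, VEGF 1 and VEGF 2 (14% of all genes). With 1 array left out there were 5 to 12 (7.65% to 14.4% of all genes). The cause was not tested, though fewer arrays also give fewer degrees of freedom. The labels share replicate numbers but do not say that they pair embryos, and deviations of same-numbered arrays correlated at 0.052, -0.13, 0.45 and 0.30. With the replicate block 0 of all genes passed an adjusted p of 0.05. At an unadjusted p under 0.05 there were then 4 of the 9 genes and 10 of the 35 other retinoid genes (13.3% of all genes). Among the other named genes Aqp1, Cldn5 and Col1a1 had an unadjusted limma p under 0.05 with the block (0.035, 0.030 and 0.049), and Tbx21 no longer did (0.072).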
